A study of Mus musculus with 2 samples.

Results

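The C/EBP genes are the family of CCAAT/enhancer-binding proteins, and all 6 that carry the name (Cebpa, Cebpb, Cebpd, Cebpe, Cebpg and Cebpz) were found by symbol among the 34714 genes of the expression table. They were measured by RNA sequencing in bone marrow-derived macrophages of C57BL/6 mice, grown in both groups with M-CSF, the growth factor of macrophages, at 20 ng/mL. One group was given the anti-CD40 antibody FGK45 for 24 h and the other IgG. CD40 belongs to the tumour necrosis factor receptors, FGK45 activates it, and IgG controls for the presence of an antibody. Each group was 1 library, so no difference between them has a replicate check, and no p-value or standard error was computed. The labels do not say how many mice or cultures a library came from.

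C/EBP proteins bind DNA as dimers through a basic region and a leucine zipper (bZIP). In myeloid cells C/EBP-alpha directs the commitment of progenitors, C/EBP-epsilon the later steps of granulocyte maturation, and C/EBP-beta and C/EBP-delta take part in the inflammatory programme of macrophages. C/EBP-gamma lacks a strong activation domain and pairs with other bZIP factors, and Cebpz, in spite of its name, encodes a nucleolar protein without a bZIP domain. The single Cebpb mRNA is translated into long activating forms and a short inhibitory form, which an mRNA level cannot tell apart.

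Levels are given as FPKM, which counts fragments per length of transcript and per library size, so that genes can be compared. Cebpb and Cebpd were higher with anti-CD40 by about the same factor, Cebpa and Cebpg were slightly higher, Cebpz lay at the middle of all genes and Cebpe was close to undetected. The FPKM values rise in steps that correspond to an aligned sequence of about 6.16 gigabases in the anti-CD40 library and 5.58 in the IgG library, and 9433 and 9259 genes reached 1 FPKM there. Intervals below are 95% exact intervals on the approximate fragment numbers that follow. They cover counting error only, and the spread between cultures is unknown. Over the 9101 genes that both libraries held at 1 FPKM or more, anti-CD40 over IgG had a median ratio of 1.11, or 0.12 as log2 ratio of FPKM + 1, so each difference is also read against that shift. In bulk RNA a lower level in each cell and a lower share of cells with the gene cannot be told apart.

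Cebpb (chromosome 2, 167688915 to 167690432, GRCm38, 1 exon) was the most abundant member. It stood at 111 FPKM with anti-CD40 and 72.3 FPKM with IgG, on about 3421 and 2021 fragments. The anti-CD40 level was 1.53-fold the IgG level, with an interval from 1.45 to 1.62. On the log2 scale with 1 FPKM added the ratio was 0.61, and 2.34% of the 9591 genes that reached 1 FPKM in either library had a larger one. The gene ranked 597th by level in the anti-CD40 library, against 855th in the IgG library.

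Cebpa (chromosome 7, 35119293 to 35121928) encodes the factor of myeloid commitment. Its level was 29.0 FPKM with anti-CD40, against 24.3 FPKM with IgG. The ratio of 1.19 had an interval from 1.11 to 1.29, whose lower end lies at the median ratio of all genes. Its log2 ratio of 0.25 was exceeded by 28.6% of genes. Thus its higher level was of a size common in this comparison, and it was smaller than that of Cebpb, whose interval does not reach it.

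Cebpd (chromosome 16, 15887286 to 15889545), the other inflammation-linked member, was far less abundant, at 7.16 FPKM with anti-CD40 and 4.52 FPKM with IgG. The ratio of the levels was 1.58, with an interval from 1.32 to 1.90 that contains the ratio of Cebpb. On the FPKM + 1 scale, which understates differences of low genes, the log2 ratio was 0.56, and 3.05% of genes had a larger one. Cebpd therefore stood just below 1.5-fold on that scale (a log2 ratio of 0.58) and Cebpb just above it.

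Cebpg (chromosome 7, 35046422 to 35056566) was at 6.92 FPKM with anti-CD40 and at 5.90 FPKM with IgG. Its ratio was 1.17, with an interval from 1.04 to 1.32 that includes the median ratio of all genes. Cebpz (chromosome 17, 78919003 to 78937070) had 6.81 and 6.28 FPKM, a ratio of 1.09 with an interval from 0.96 to 1.23. Its log2 ratio of 0.10 lay 0.02 below the median of all genes. The direction of Cebpz depends on the scaling, since it was slightly higher as deposited and slightly lower once the median or the upper quartile of the libraries was equalised. Cebpb, Cebpd, Cebpa and Cebpg were higher with anti-CD40 under all scalings and pseudocounts that were run.

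Cebpe (chromosome 14, 54710363 to 54712174), the granulocyte member, was at 0.039 FPKM with anti-CD40 and 0.12 FPKM with IgG. These levels correspond to about 1 fragment and 3 fragments. The ratio of 0.322 had an interval from 0.00575 to 3.76, so no difference was detectable at this depth. Of the 6 members, Cebpe is the one below 1 FPKM in both libraries, and it enters none of the counts below.

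Ordered by level in the anti-CD40 library, Cebpb stood first and Cebpa second, with Cebpd, Cebpg and Cebpz close together and Cebpe last. The counting intervals of Cebpd (6.40 to 7.97 FPKM), Cebpg (6.41 to 7.47) and Cebpz (6.27 to 7.40) overlapped there. In the IgG library the order below Cebpa was Cebpz, Cebpg, Cebpd. The interval of Cebpd, 3.90 to 5.21 FPKM, lay below those of Cebpg (5.41 to 6.44) and Cebpz (5.73 to 6.87), which overlapped each other. Cebpd was thus level with Cebpg in the anti-CD40 library, at 1.03 times its level, and below it in the IgG library, at 0.766 times.

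**Figure D1:**
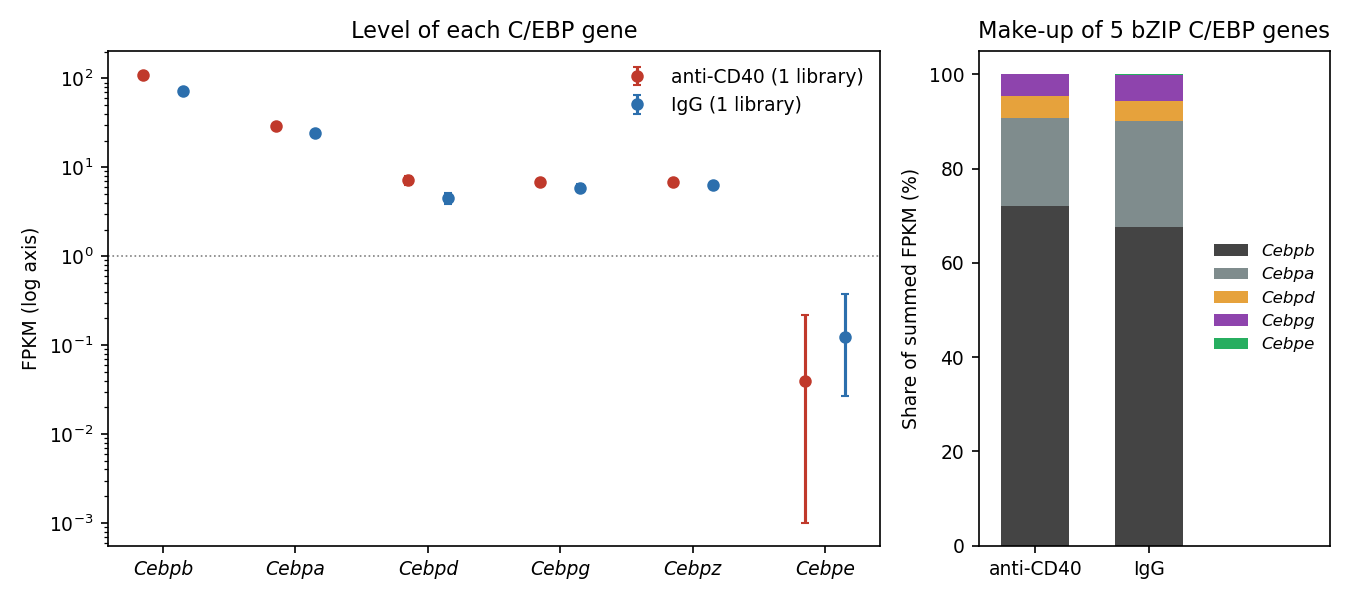
Left, level of each C/EBP gene in FPKM on a log axis, with 1 point per library (red anti-CD40, blue IgG), bars for the 95% counting interval and a dotted line at 1 FPKM. Right, share of each gene in the summed FPKM of the 5 bZIP members, where Cebpb makes up 72.0% with anti-CD40 and 67.5% with IgG.

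The 5 bZIP members summed to 154 FPKM with anti-CD40 and 107 FPKM with IgG, a ratio of 1.44. Without Cebpb the sum was 43.1 against 34.8 FPKM, a ratio of 1.24. Cebpb made up 72.0% of the summed level with anti-CD40 and 67.5% with IgG, and Cebpa 18.8% and 22.7%. Cebpd held 4.65% and 4.22%, and Cebpg 4.50% and 5.51%. There were 3.82 units of Cebpb FPKM for each unit of Cebpa with anti-CD40, against 2.98 with IgG. The ratio of Cebpb to Cebpd was nearly the same in both, at 15.5 and 16.0, as was that of Cebpa to Cebpg, at 4.18 and 4.11. A ratio of levels within a library does not depend on how the libraries are scaled. The family thus held a larger part of Cebpb relative to Cebpa with anti-CD40.

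Counts of genes past a fold are on the FPKM + 1 scale unless the plain ratio of FPKM values is named. Read against all genes, 1 of the 5 members at 1 FPKM or more (Cebpb) stood 1.5-fold or more above IgG on that scale, as did 2.68% of the 9591 genes. By the plain ratio, a count added after seeing the data, both Cebpb and Cebpd passed 1.5-fold, as did 5.89% of 9588 genes above 0 in both libraries, and 3.63% were as much lower. None of the 5 was at least 1.5-fold lower, where 2.15% of genes were. No member was at least 2-fold apart, against 0.25% of genes higher and 0.313% lower. Relative to the median log2 ratio, none of the 5 reached 1.5-fold higher, which 1.27% of genes did, or 1.5-fold lower, which 4.18% did. Over all genes the 1.5-fold counts were 257 higher and 206 lower as deposited, 122 and 401 relative to the median, and 333 and 158 once both column sums were made equal to their mean. The median log2 ratio of the 5 members was 0.25, and that of the 9591 genes 0.12. The shares of all genes given here are the background for every list count below.

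**Figure D2:**
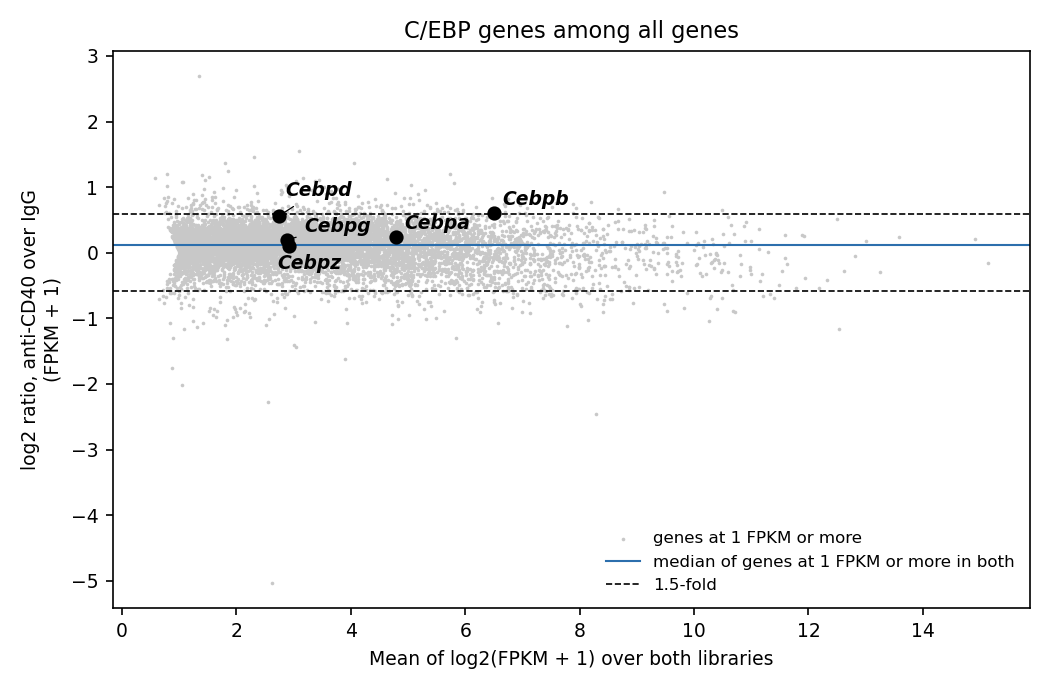
Log2 ratio of anti-CD40 over IgG (FPKM + 1) against the mean log2(FPKM + 1) of both libraries, with 1 grey point per gene that reached 1 FPKM in either library and black points for 5 C/EBP genes. The blue line is the median of genes that reached 1 FPKM in both (0.12) and the dashed lines mark 1.5-fold; Cebpb (0.61) and Cebpd (0.56) lie at the upper line and Cebpz (0.10) at the median.

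The promoters of only 3 members, Cebpb, Cebpa and Cebpg, were found among RefSeq windows of GRCm38.p6. The 250 bases before the annotated start are shown for all 3. Cebpd, whose ratio was close to that of Cebpb, had no window, and a link between motifs and ratios was not tested. Capitals mark TGACG, the core of the cyclic AMP response element (CRE), in Cebpb; TATAAA and TTGCG, the core of a C/EBP site, in Cebpa; and CCAAT in Cebpg, each on either strand (CGTCA and ATTGG are the reverse complements). The windows are chr2:167688665-167688914 on the plus strand, chr7:35119043-35119292 on the plus strand and chr7:35056567-35056816 on the minus strand.
Cebpb: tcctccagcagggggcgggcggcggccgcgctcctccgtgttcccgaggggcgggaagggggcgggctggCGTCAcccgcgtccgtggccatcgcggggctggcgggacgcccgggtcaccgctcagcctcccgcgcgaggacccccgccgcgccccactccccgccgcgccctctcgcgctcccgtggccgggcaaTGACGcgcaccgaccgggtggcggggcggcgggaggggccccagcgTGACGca
Cebpa: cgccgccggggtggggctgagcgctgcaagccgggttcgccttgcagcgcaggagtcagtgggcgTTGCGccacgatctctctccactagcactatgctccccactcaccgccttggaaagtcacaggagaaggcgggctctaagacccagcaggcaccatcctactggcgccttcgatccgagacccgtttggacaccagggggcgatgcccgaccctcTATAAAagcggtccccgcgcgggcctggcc
Cebpg: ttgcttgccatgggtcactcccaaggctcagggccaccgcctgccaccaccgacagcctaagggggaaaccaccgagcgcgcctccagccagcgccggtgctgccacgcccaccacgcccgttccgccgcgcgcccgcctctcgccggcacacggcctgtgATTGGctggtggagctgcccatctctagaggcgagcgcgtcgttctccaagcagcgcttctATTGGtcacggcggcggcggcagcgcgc

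The Cebpb window held TGACG at 3 places, with first bases 180, 53 and 7 bases before the start, and 17.8% of 32851 promoter windows of that length held it at all. The Cebpb promoter is known for CRE-like elements that CREB and ATF factors bind. It also held GGGCGG, the GC box of Sp1, at 5 places, a pair of which overlap, and 32.7% of windows held that motif. Of the window, 81.6% of bases were G or C, against a median of 52.4% over all windows. TATAAA, present in 12.4% of windows, was not in the Cebpb window but at base 22 after the annotated start. In Cebpa, TATAAA began 30 bases before the start and TTGCG, in 14.5% of windows, 185 bases before it; the mouse Cebpa promoter is known for a C/EBP site through which the protein acts on its own gene. Cebpg held CCAAT, the box bound by NF-Y, at 89 and 28 bases before the start, and 33.8% of windows held it. The full palindromes TTGCGCAA (0.164% of windows) and TGACGTCA (1.55%) were in none of the 3 windows. TTGCG and TGACG are parts of these palindromes. Such matches describe the letters and do not show binding.

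**Figure D3:**
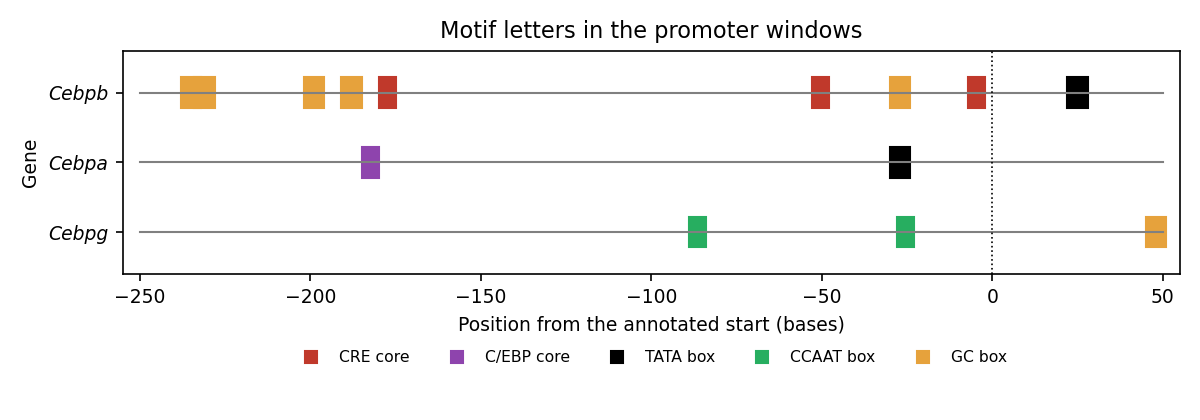
Positions of the motif letters on either strand from 250 bases before to 50 bases after the annotated start (dotted line, distance in bases) for Cebpb, Cebpa and Cebpg. Red boxes are the CRE core, found at 3 places in Cebpb, and green boxes the CCAAT box, found at 2 places in Cebpg.

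Several members share their locus with other genes, and the strand setting of the counting is not given in the sources used here, so reads in an overlap cannot be assigned by strand. The 3' part of Cebpd overlaps 322 bases of Spidr, a gene of DNA repair on the opposite strand. Spidr had 2.56 FPKM with anti-CD40 and 1.15 FPKM with IgG, a ratio of 2.23 with an interval from 1.69 to 2.997. Both genes of the overlap were thus higher with anti-CD40, and the part of the overlap in either value was not tested. Cebpz overlaps 2046 bases of Cebpzos, its opposite-strand neighbour, which had 3.72 against 2.75 FPKM and a ratio of 1.35 with an interval from 0.88 to 2.07. Ndufaf7, which assists assembly of respiratory complex I, starts 35 bases beyond Cebpz and had 4.31 against 3.82 FPKM.

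Cebpg and Cebpa lie 62.7 kb apart on chromosome 7. The lncRNA Gm35611 between them was listed at 0 in both libraries, as were Gm45095, which overlaps Cebpg, and Gm35724 beyond Cebpa. Pepd, the prolidase gene 1.71 kb from Cebpg, had 51.6 against 44.1 FPKM, a ratio of 1.17 equal to that of Cebpg. Beside Cebpb, the lncRNA A530013C23Rik lies 326 bases away and had 0.688 FPKM with anti-CD40 and 0.685 FPKM with IgG, and Gm14320 had 0.28 against 0.384. The interval of the ratio of A530013C23Rik ran from 0.632 to 1.58 and so includes that of Cebpb. Next to Cebpe, the amino acid transporter gene Slc7a8 had 4.21 against 3.01 FPKM and Gm29776 was listed at 0. The remaining neighbours, Gm41425 by Cebpd and Sult6b1 by Cebpz, were at 0.060 and 0.023 FPKM with anti-CD40, against 0.037 FPKM and 0 with IgG.

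By distance in log2(FPKM + 1) over both libraries, the genes nearest to Cebpb among 8569 candidates were Gltp, which encodes a glycolipid transfer protein (107 against 72.2 FPKM), the Y-box protein gene Ybx1 (108 against 70.4) and the copper chaperone gene Cox17 (110 against 75.3). Nearest to Cebpd were Rrs1, Exosc1 and Ormdl1, and nearest to Cebpa were Plek, Nme3 and Inppl1. Tgfbrap1, Nipsnap3b and Pdcd2l were nearest to Cebpg, and Tmem167b, Osbpl2 and Tmem81 to Cebpz. All distances were between 0.0079 and 0.059. With 2 libraries this likeness rests on level and ratio alone.

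Of 27 bZIP factors that pair or compete with C/EBP proteins, 25 reached 1 FPKM. On the FPKM + 1 scale and by the plain ratio alike, 7 were at least 1.5-fold higher and 1 lower. Of all genes, 2.68% and 2.15% were on the FPKM + 1 scale, and 5.89% and 3.63% by the plain ratio. A log2 ratio above 0 was seen for 72% of the 25, close to the 67.8% of all genes. Their median log2 ratio was 0.28, and 18 exceeded the median of all genes. The AP-1 subunit gene Junb had 186 against 106 FPKM, Fos 169 against 105 and Fosb 10.4 against 6.17. Nfil3, a bZIP repressor, had 1.89 against 0.87 FPKM. Batf, Atf3 and Atf5, named because they complete the count, had 5.23 against 3.11, 162 against 106 and 37.9 against 24.8 FPKM. The 1 lower factor was Batf3 at 8.88 against 14.1 FPKM, named after its value was seen.

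Ddit3, which encodes CHOP, a partner that keeps C/EBP dimers from classical sites, had 87.1 FPKM with anti-CD40 and 129 FPKM with IgG. Its ratio was 0.676 with an interval from 0.634 to 0.72. Cebpb therefore stood at 1.27 times the level of Ddit3 with anti-CD40 and at 0.562 times with IgG, so that the order of the pair differed between the libraries. Atf4, the stress factor that C/EBP-gamma pairs with, had 68.5 against 55.9 FPKM, and Cebpg stood at 0.101 and 0.106 times its level. Of 22 amino acid and stress genes of that pair, 19 reached 1 FPKM. On the FPKM + 1 scale, 2 of these were at least 1.5-fold higher (Gdf15 at 79.7 against 34.1 FPKM and Atf5), where 2.68% of all genes were. By the plain ratio 6 were, where 5.89% of all genes were. None was as much lower on either, where 2.15% and 3.63% of all genes were. The median log2 ratio of the 19 was 0.21. The low stress genes Ddit4 (1.5 against 0.734 FPKM) and Trib3 (2.13 against 1.20) were among the 6. A log2 ratio above 0 was seen for 14 of the 19, or 73.7%, against 67.8% of all genes. Chac1, named after its value was seen, went the other way at 2.44 against 3.66 FPKM. Its ratio of 0.667, with an interval from 0.496 to 0.898, fell just short of 1.5-fold lower.

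The Tribbles proteins TRIB1 and TRIB2 act with the COP1 ligase to mark C/EBP-alpha for degradation. Of 11 genes of the Tribbles family and of C/EBP protein turnover, 10 reached 1 FPKM. None of these was 1.5-fold apart on the FPKM + 1 scale, and their median log2 ratio was 0.23. By the plain ratio 1 was, Trib3 at 1.76, which is in the list as a Tribbles gene. Trib1 had 2.08 against 1.57 FPKM, Gsk3a, a kinase of C/EBP proteins, 32.6 against 22.02, and Det1, a COP1 partner, 3.94 against 3.06. The ubiquitin ligase adaptor Fbxw7 had 5.36 against 7.60 FPKM. Of 25 kinases and factors that act on Cebp genes or proteins, 24 reached 1 FPKM, with 1 at least 1.5-fold higher on either scale, none lower, and a median log2 ratio of 0.18. That 1 was Eif4e, the cap-binding translation factor, at 14.9 against 6.38 FPKM, a ratio of 2.33 with an interval from 2.12 to 2.57. Nfkb1 had 8.41 against 6.00 FPKM and the protein kinase A subunit Prkaca 24.6 against 18.3.

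Of 17 myeloid factors that work beside C/EBP, 11 reached 1 FPKM, none was 1.5-fold apart on the FPKM + 1 scale, and 10 exceeded the median of all genes. The list median of the log2 ratio was 0.39. Spi1, the gene of the macrophage factor PU.1, had 251 against 195 FPKM, and Cebpa stood at 0.116 and 0.125 times its level. Bhlhe40 had 10.8 against 6.84 FPKM, a plain ratio of 1.57, Id2 29.3 against 20.7, Klf6 19.2 against 13.4 and Egr2 7.14 against 4.97. The 1 gene of this list below the median was Runx1, at 8.73 against 11.1 FPKM, named after its value was seen.

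**Figure D4:**
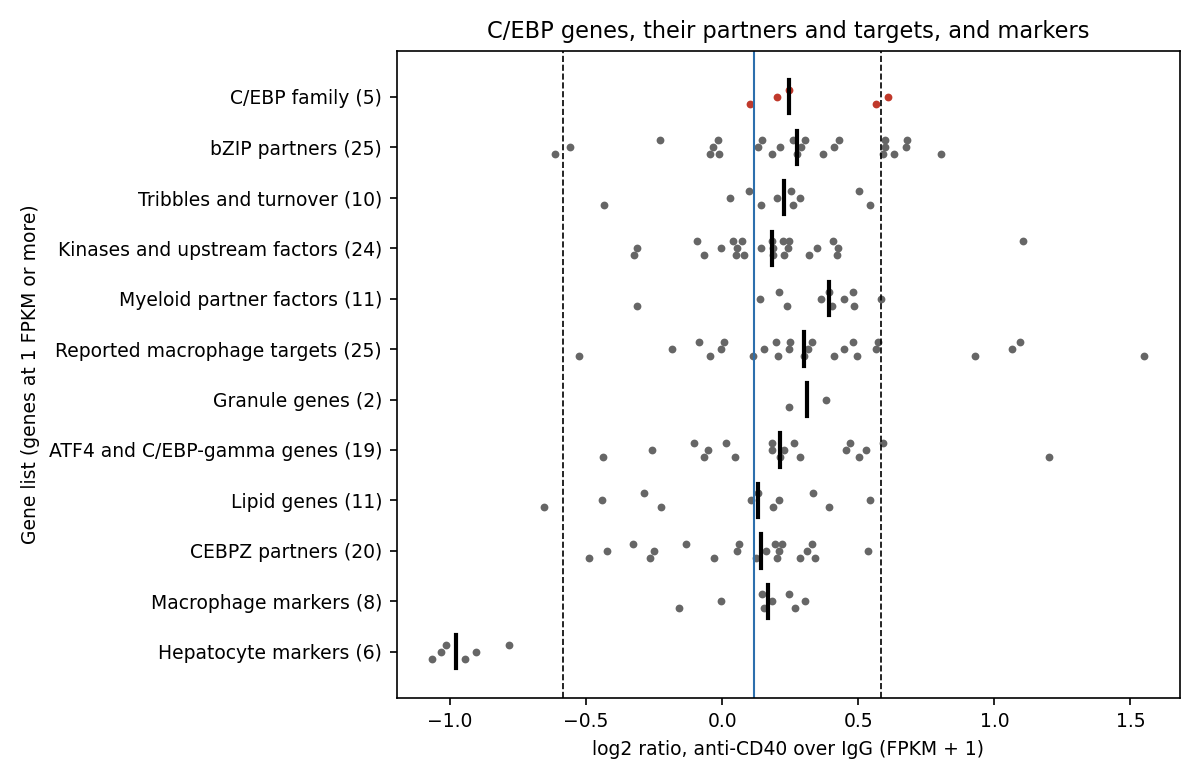
Log2 ratio of anti-CD40 over IgG (FPKM + 1) for each gene at 1 FPKM or more, by list, with the number of genes in brackets and the C/EBP genes in red. Black bars are list medians, the blue line is the median of all genes (0.12) and dashed lines mark 1.5-fold; the 6 hepatocyte markers lie between -1.07 and -0.78.

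Of 33 genes reported as targets of C/EBP-beta or C/EBP-delta in macrophages, 25 reached 1 FPKM. On the FPKM + 1 scale, 4 of these were at least 1.5-fold higher and none as much lower, where 2.68% and 2.15% of all genes were. The median log2 ratio of the 25 was 0.30, and 18 exceeded the median of all genes. The 4 were Il1b (13.6 against 4.0 FPKM), Cxcl1 (11.1 against 4.65), Cxcl2 (80.0 against 37.7) and Osm (16.2 against 8.01), which many other factors also act on. By the plain ratio 6 were 1.5-fold higher, with Clec4e and Mgst1 added at 1.51 each, and Ptges was as much lower. By that ratio 5.89% of all genes were higher and 3.63% lower, larger shares than on the FPKM + 1 scale. Genes named after their values were seen went both ways. Csf1r, the M-CSF receptor gene, had 333 FPKM in both libraries, and the scavenger receptor gene Msr1 had 19.4 against 22.2. Ptges, of prostaglandin E2 synthesis, had 1.92 against 3.21 FPKM, while Ptgs2, the cyclooxygenase before it, had 0.916 against 0.507. Arg1, the arginase gene that depends on C/EBP-beta in macrophages, was at 0.050 FPKM with anti-CD40 and 0.325 FPKM with IgG. These levels rest on about 2 and 9 fragments, and the interval of the ratio ran from 0.021 to 0.97. Il6 and Csf3 were listed at 0 with anti-CD40 and IgG alike, and an exact 0 can be a failed estimate.

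Granule genes of the C/EBP-epsilon programme were mostly near 0, as Cebpe was. Of 18 listed, 7 were at 0 in both libraries (Ltf, Ngp, Mpo, Ctsg, Epx, Fcnb and Bpi) and 2 reached 1 FPKM. These 2 are also macrophage genes, namely lysozyme Lyz2, at 13423 against 11326 FPKM, and the NADPH oxidase subunit Cybb, at 73.8 against 56.5. Of 13 lipid genes shared by adipocytes and macrophages, 11 reached 1 FPKM, with 1 at least 1.5-fold lower on either scale and none higher. Lipoprotein lipase Lpl was that gene, at 1007 against 1586 FPKM, and the lipase Pnpla2 had 74.8 against 102. Fabp4 had 385 against 264 FPKM and Scd2 22.9 against 17.2, and the list median was 0.13. Of 21 nucleolar and CCAAT-binding genes set beside Cebpz, 20 reached 1 FPKM, none was 1.5-fold apart on the FPKM + 1 scale and the median log2 ratio was 0.14. The nucleolar genes Ncl and Nop56 had 28.2 against 40.0 and 30.2 against 40.9 FPKM, whereas Rrs1 had 7.06 against 4.56, a plain ratio of 1.55, and Npm1 133 against 105.

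The cells carried macrophage markers, with all 8 at 1 FPKM or more, none 1.5-fold apart on either scale and a median log2 ratio of 0.17. A log2 ratio above 0 was seen for 6 of the 8. Adgre1 had 94.4 against 78.3 FPKM and Itgam 12.5 against 10.9, ratios of 1.21 and 1.15. Fcgr1 went the other way at 27.1 against 30.3 FPKM, a ratio of 0.893, and Csf1r had 333 FPKM in both libraries. Of 10 neutrophil markers, 2 reached 1 FPKM, and the sum over all 10 was 18.6 against 21.7 FPKM. Csf3r made up most of it at 16.0 against 20.1, with S100a8 at 1.82 against 1.11, and S100a9, Ly6g, Ltf, Ngp and Retnlg were at 0. All 6 hepatocyte markers reached 1 FPKM in at least 1 library, and all were at least 1.5-fold lower with anti-CD40 on either scale. They summed to 18.8 against 43.3 FPKM, with Alb at 9.56 against 21.1, Apoa1 at 3.15 against 7.38, Ahsg at 1.16 against 3.16 and Cyp2e1 at 0.653 against 2.38. Liver expresses Cebpa and Cebpb strongly. These 2 genes were higher with anti-CD40, where the hepatocyte markers were lower. The part of liver transcripts in the levels of Cebpa and Cebpb was not tested.

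Erythroid markers summed to 1.65 against 3.38 FPKM, with Hba-a1 at 1.18 against 2.91. The markers of eosinophils, basophils and mast cells summed to 1.62 FPKM in both libraries, those of dendritic cells to 0.278 against 0.277, of B cells to 1.23 against 0.978, of T and NK cells to 0.273 against 0.202, and of fibroblasts and adipocytes to 1.21 against 0.537. None of these 5 lists had a gene at 1 FPKM. In the fibroblast and adipocyte list, Col1a1 had 0.406 against 0.032 FPKM, on about 49 and 4 fragments. Its ratio was 12.7, with an interval from 4.07 to 42.3. Col3a1 went the other way at 0.023 against 0.033 FPKM, on about 3 fragments in each library. Both were named after their values were seen. At 0 in both libraries were Epx, Mcpt8, Fcer1a, Flt3, Pax5, Cd3e, Cd3d, Cd3g, Cd8a, Ncr1 and Adipoq.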

How the data were processed

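TruSeq libraries were made from 1.3 ug of TRIzol-extracted RNA, per the labels' protocols. HISAT2 2.1.0, StringTie and build mm10 are named in the submitters' processing notes. The annotation used is not given in the sources used here, nor are strand setting and filters. The deposited table has no named unit and was read as FPKM, from StringTie and because the columns sum to unequal totals, 529104 for anti-CD40 and 547362 for IgG, as TPM would not. Columns were matched by name, and 0 value columns were left unused.

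For single-exon genes with 1 RefSeq transcript, FPKM times length came out as whole bases within 0.05 for 70.0% of 70 low genes (anti-CD40) and 88.9% of 36 (IgG), most often 300 and 150 bases, read as a fragment and a read. Approximate fragments used the longest GENCODE M21 transcript paired with RefSeq, else the median transcript, capped at the RefSeq gene span. From these came exact Poisson intervals of levels and exact conditional binomial intervals of ratios. They assume FPKM and that length.

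Log2 ratios are of FPKM + 1, anti-CD40 over IgG. Genes were counted at 1 FPKM or more in either library, past 1.5-fold or 2-fold on that scale, and also by the plain ratio, added after seeing the data. The counting was tested on simulated data with counting noise only, on genes at 5 FPKM or more, some set 3-fold apart. That test does not cover the recovery of 1.5-fold differences, genes of lower level or the spread between cultures. Genes named are the 6 members, up to 4 per list with the largest log2 ratio either way, Ddit3, Atf4, Trib1, Spi1 and Nfil3, locus neighbours, and the 3 genes nearest each member; others were chosen after seeing values. The members, 9 pathway lists and 9 marker lists were chosen with earlier results of these data known. Lists share genes, such as Trib3, Atf5 and Lcn2. Python 3.11.15, pandas 2.3.3 and scipy 1.17.1 were used. Alternatives were pseudocounts of 0.1 and 5, filters and 4 rescalings. A few genes that the naming rule picks are not reported here.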

Additional observations from a re-analysis of the deposited data

How the results depend on the processing

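Of 60 recomputed values under other settings, 43 stayed within counting error or, for counts of genes, within 1.5 times. The log2 ratio of Cebpb ranged from 0.46 to 0.66, of Cebpd from 0.35 to 0.65, of Cebpa from 0.10 to 0.30, of Cebpg from 0.07 to 0.26 and of Cebpz from -0.03 to 0.16. Centring on the median gave 0.49 for Cebpb, 0.13 for Cebpa and 0.40 for the summed bZIP members, with 122 genes at least 1.5-fold higher and 401 lower. Upper-quartile scaling gave 0.46, 0.10 and 0.37 in that order, with 120 higher and 420 lower. By construction both lower every ratio toward IgG. Cebpb was then below 1.5-fold, as it was with a pseudocount of 5 (0.58). A pseudocount of 0.1 gave 508 genes higher and 329 lower, and one of 5 gave 81 and 102. The plain ratio of FPKM, chosen after seeing the data, gave 565 and 348. TPM-like sums gave 495 higher and 235 lower over 10609 genes, and Cebpd passed 1.5-fold there, with the mean of sums and with a pseudocount of 0.1. Cebpz turned lower, at -0.02 with centring and -0.03 with upper-quartile scaling. No paired analysis was possible because each group held 1 library. Depth limits Cebpe, which rests on 1 and 3 fragments, and 1 library per group limits all else.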
